A study of Mus musculus with 24 samples.

Results

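The genes described here encode the core proteins of the perineuronal matrix: the lecticans Acan (aggrecan), Bcan (brevican), Ncan (neurocan) and Vcan (versican), the link proteins Hapln1 and Hapln4, and the tenascins Tnr (tenascin-R) and Tnc (tenascin-C). They were taken by gene name, which gave 8 genes with 22 probe sets among 18194 genes with a probe set of their own on the array. Each gene was read from its probe set of highest mean, with the others as a check, and 7 of the 8 entered the tests among 12378 genes tested. Hapln4 did not, since it lay below the array median in all 24 arrays.

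The 24 arrays came from neuron cultures of Npas4 knockout (KO) and wild-type (WT) littermate C57Bl/6 mouse embryos taken at embryonic day 14. Npas4 is a transcription factor that neurons induce when they fire. Cells of the medial ganglionic eminence (MGE), the source of many cortical inhibitory neurons, were compared with cells of the cortex (CTX), whose neurons are mostly excitatory. The 12 groups, of 2 arrays each, were MGE KO, MGE WT, CTX KO and CTX WT cultures after 0, 1 and 6 h of depolarization with 55 mM KCl, and every culture, including the 0 h ones, had first been silenced overnight with tetrodotoxin and AP-5. The labels give 10 days in culture, against 9 days before silencing in the series description. Which part of Npas4 was deleted is not given in the sources used here, so its probe set may lie outside that part. Its readings, given below, would then show a lower Npas4 signal in KO arrays after KCl and not the deletion itself. Nor do the sources state that the 2 arrays of a group came from separate cultures or embryos, so the p-values measure the spread between these arrays, which may be technical.

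Perineuronal nets are dense sheets of extracellular matrix around the cell bodies and proximal dendrites of some neurons, best known around parvalbumin interneurons of the cortex. Lecticans are chondroitin sulfate proteoglycans that bind the polysaccharide hyaluronan at one end and tenascin-R at the other, and link proteins lock the lectican to the hyaluronan. Aggrecan marks most cortical nets, neurocan and versican are abundant in the developing brain, brevican and tenascin-R are made largely by glia, and tenascin-C by immature glia and progenitors. In the RefSeq annotation of GRCm38.p6, every lectican gene lies beside a link protein gene with 0 annotated genes wholly between them: Acan beside Hapln3 on chromosome 7, Bcan beside Hapln2 on chromosome 3, Ncan beside Hapln4 on chromosome 8, and Vcan beside Hapln1 on chromosome 13.

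The promoters of Acan, Hapln1 and Vcan, the 3 genes described at most length below, are shown as the 250 bases before the gene's start, 5′ to 3′ on the gene's strand, from RefSeq on GRCm38.p6. Capitals mark CpG dinucleotides.
Acan (chr7:79052976-79053225, strand +): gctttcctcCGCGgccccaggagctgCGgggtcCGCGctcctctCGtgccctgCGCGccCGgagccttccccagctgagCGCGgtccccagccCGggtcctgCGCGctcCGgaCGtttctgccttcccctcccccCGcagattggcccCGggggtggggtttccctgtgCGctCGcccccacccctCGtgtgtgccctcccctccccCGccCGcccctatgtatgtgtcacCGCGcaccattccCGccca
Hapln1 (chr13:89540386-89540635, strand +): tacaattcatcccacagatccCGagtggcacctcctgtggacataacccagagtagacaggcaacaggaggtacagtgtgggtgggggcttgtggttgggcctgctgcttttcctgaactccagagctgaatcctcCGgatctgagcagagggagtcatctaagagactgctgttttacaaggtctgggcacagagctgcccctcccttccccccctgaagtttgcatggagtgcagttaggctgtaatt
Vcan (chr13:89742513-89742762, strand -): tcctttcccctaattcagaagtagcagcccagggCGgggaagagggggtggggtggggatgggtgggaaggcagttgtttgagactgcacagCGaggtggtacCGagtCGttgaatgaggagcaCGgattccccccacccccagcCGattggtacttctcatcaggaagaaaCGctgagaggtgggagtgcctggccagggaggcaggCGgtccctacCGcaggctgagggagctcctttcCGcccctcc
The Acan window held 26 CpG dinucleotides and was 74.4% G or C, the Vcan window 10 and 62.4%, and the Hapln1 window 2 and 54.4%. Over 32851 promoter windows of that length the median was 6 CpG, with 1 and 25 at the 10th and 90th percentiles. The AP-1 motif TGANTCA, the full CRE motif TGACGTCA and the E-box CACGTG were searched on both strands of windows from 250 bases before to 50 after each start. None of the 8 windows of the 7 genes with a RefSeq promoter entry (Tnc has 2) held these letters, against 7.81%, 1.79% and 7.15% of all 32851 windows, and nothing follows from that about the factors. None of these motifs contains another.

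All values are log2 of the deposited intensity unless a fold is given, and array medians lay between 6.84 and 6.92 on that scale. A gene is said to differ where limma's moderated test, fitted over all 12 groups, gave a Benjamini-Hochberg adjusted p under 0.05 over the 12378 genes. In KO arrays Npas4 read 6.80 to 7.35 at 1 h and 6.80 to 7.82 at 6 h, against 11.2 to 12.04 and 8.59 to 11.84 in WT arrays, with no overlap at either time, while at 0 h it read 5.35 to 5.82 in KO arrays and 5.70 to 5.94 in WT arrays. Mean levels of 15 interneuron markers were 11.4 to 11.9 in MGE arrays and 9.37 to 10.0 in CTX arrays, and those of 11 excitatory cortical markers were 6.06 to 6.69 in MGE arrays and 11.02 to 11.27 in CTX arrays. The paired arrays of a group correlated at 0.951 in MGE WT at 0 h and 0.965 in CTX WT at 6 h, against 0.977 to 0.992 in the other 10 groups. Results for named genes that rest on either group are therefore also given without each of its arrays where that ends a call. Counts over lists of genes are given with all arrays in, and some of the calls in them are lost when an array is left out. Markers of vascular cells and fibroblasts averaged 7.87 to 8.82 in the CTX arrays of repeat 2 and 7.04 to 7.20 in those of repeat 1.

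**Figure D1:**
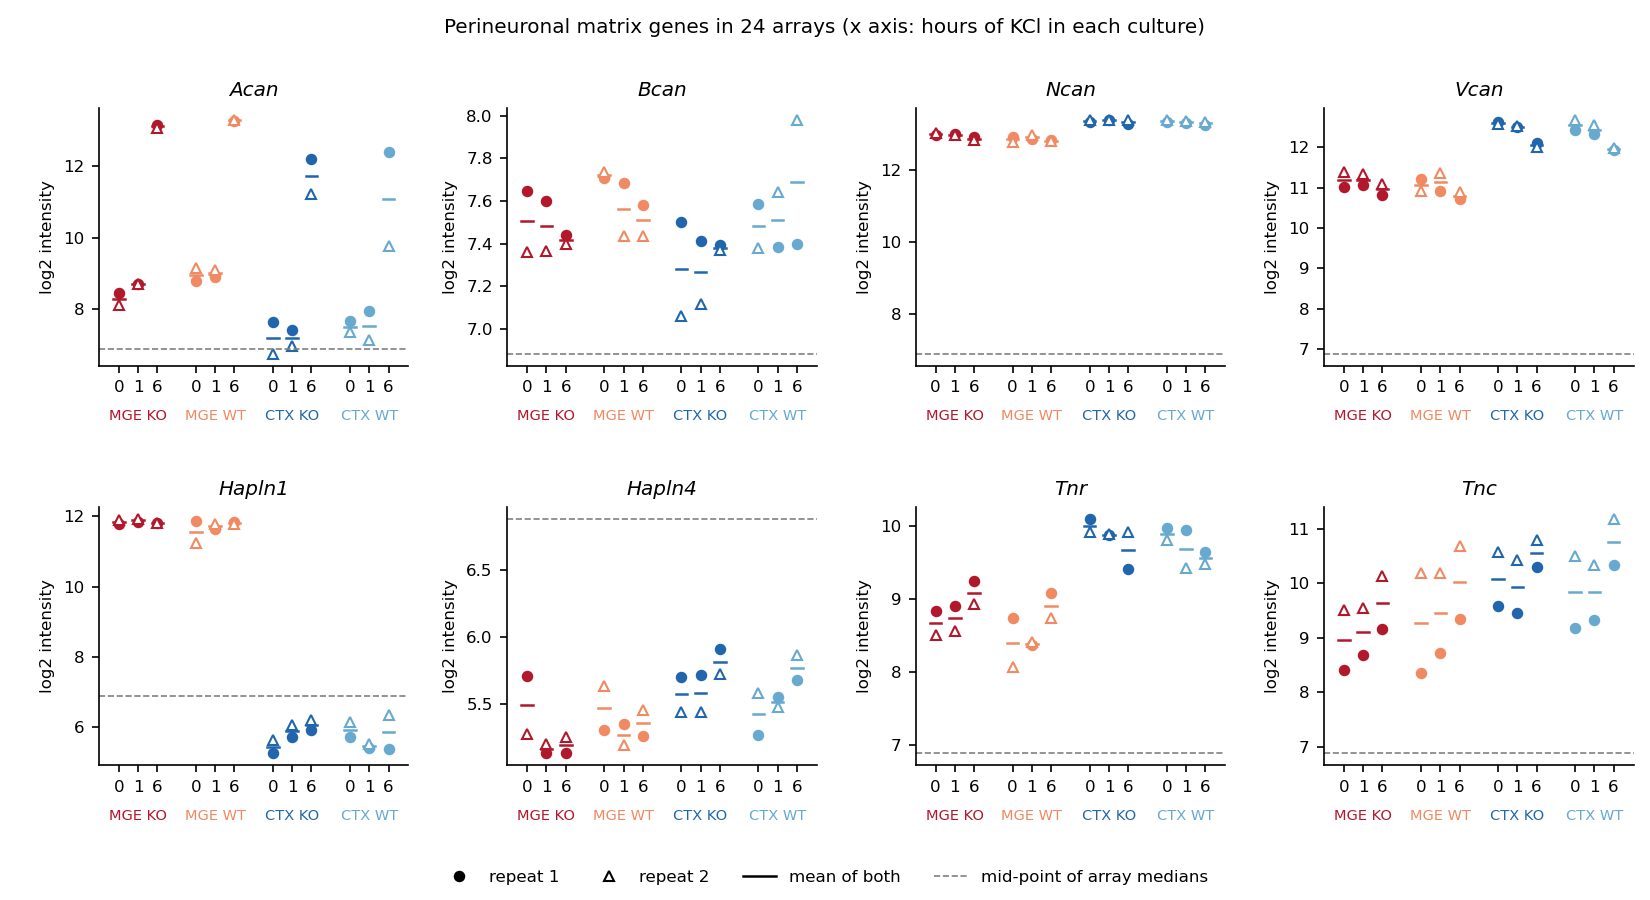
Log2 intensity of the 8 genes in every array, with hours of KCl on the x axis, filled circles for repeat 1, open triangles for repeat 2, a bar at the mean and a dashed line midway between the lowest and highest array median. Acan is highest at 6 h in all 4 cultures, Hapln1 separates MGE from CTX arrays by more than 4 units, and Hapln4 stays below the dashed line. Each y axis has its own range.

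Depolarization for 6 h raised 1 gene of the group in every culture, Acan. A fall of 1 other, Vcan, in CTX cultures passed only on its brightest probe set, and other Vcan probe sets rose there. In MGE KO cultures Acan, the lectican with the most chondroitin sulfate chains, read 8.46 and 8.11 before KCl, 8.69 and 8.71 after 1 h and 13.16 and 13.06 after 6 h. In MGE WT cultures it read 8.78 and 9.15 before KCl, 8.91 and 9.10 after 1 h and 13.26 and 13.29 after 6 h. Both genotypes were high at 6 h alone, and no 6 h array of either overlapped an earlier one. In CTX KO cultures it read 7.63 and 6.75 before KCl, 7.42 and 6.96 after 1 h and 12.20 and 11.23 after 6 h. In CTX WT cultures it read 7.67 and 7.36 before KCl, 7.94 and 7.15 after 1 h and 12.38 and 9.77 after 6 h. The 6 h arrays were again apart from the earlier ones, but the CTX WT pair at 6 h differed by 2.61, the widest gap between paired arrays of any gene of the group, and in all 6 CTX groups the array of repeat 2 was the lower one. In CTX WT at 6 h vascular markers averaged 7.20 in repeat 1 and 8.82 in repeat 2, and interneuron markers 10.00 and 9.44. In CTX KO at 0 and 1 h interneuron markers were instead higher in repeat 2. The part of either set of markers in the 2.61 gap was not tested.

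The 6 h minus 0 h difference of Acan was 4.82 in MGE KO (28.3-fold, adjusted p 8.11e-05), 4.31 in MGE WT (19.8-fold, 0.000185), 4.52 in CTX KO (23.0-fold, 3.42e-05) and 3.56 in CTX WT (11.8-fold, 0.000277), each with an SE of 0.59 and n = 2 arrays a group, by limma. All 4 calls held under every alternative run, while the CTX WT value was 2.26 without repeat 1 at 6 h and 4.87 without repeat 2. In MGE KO cultures 1 of the 7 tested genes differed at 6 h, against 17.1% of all genes tested, and in MGE WT cultures 1 of 7, against 25.3%. In CTX KO cultures 2 of the 7 differed, against 36.2%, and in CTX WT cultures 2 of 7, against 35.2%. The median over the 7 genes was -0.04 in MGE KO, 0.27 in MGE WT, 0.10 in CTX KO and -0.07 in CTX WT, beside medians over all genes of -0.07, -0.05, -0.11 and -0.10 in the same order of cultures. The difference of the 6 h response of Acan between MGE and CTX cultures was 0.30 in KO (95% interval -1.47 to 2.08) and 0.75 in WT (-1.03 to 2.52), which did not pass the test.

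**Figure D2:**
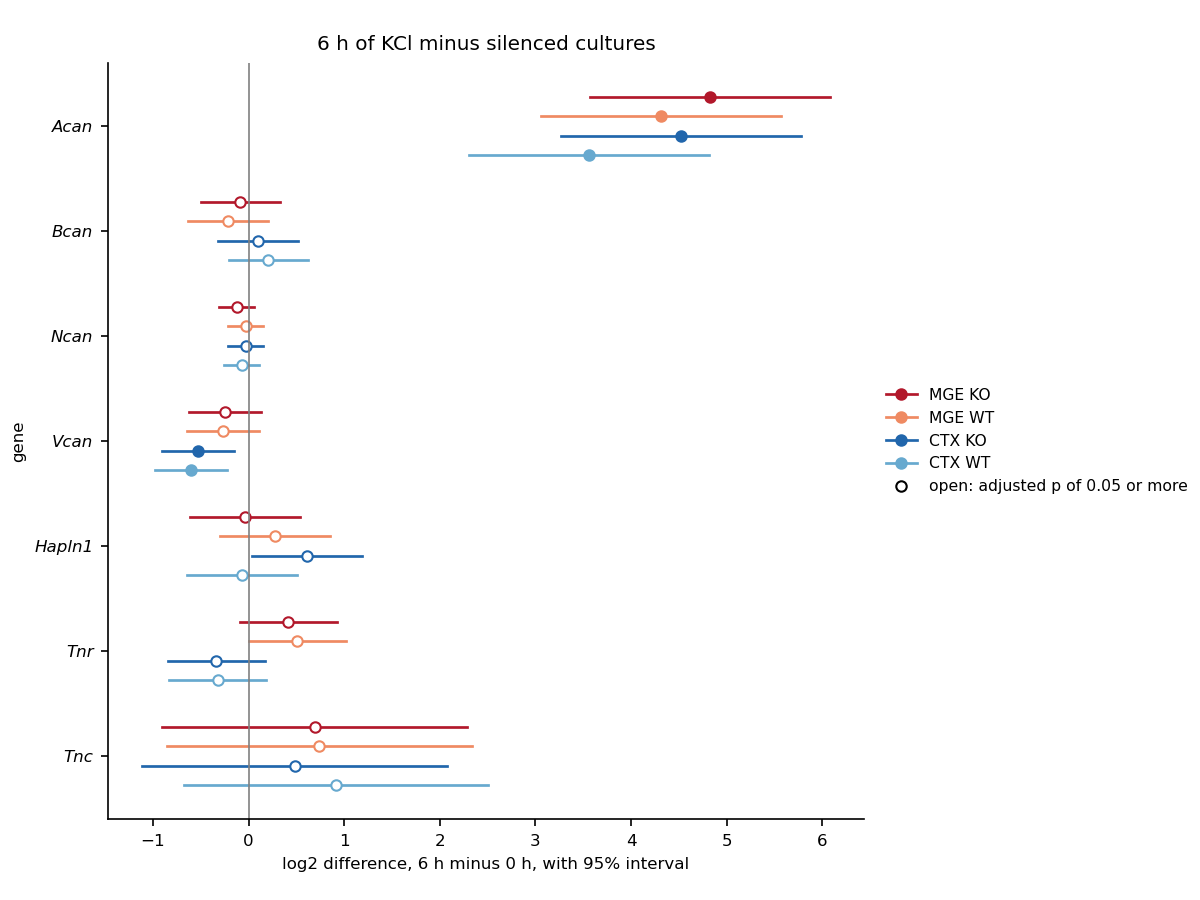
Log2 difference, 6 h minus 0 h of KCl, of the 7 tested genes in the 4 cultures, with the 95% interval of the limma fit as a line and a filled point where the adjusted p was under 0.05. Acan lies between 3.56 and 4.82 and stands alone on the right, and Vcan is filled on the left in both CTX cultures.

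Vcan, a large lectican whose splice forms differ in how many chondroitin sulfate attachment regions they carry, was read by several probe sets that did not move together. On its brightest probe set, 1427256_at, CTX KO arrays read 12.62 and 12.57 before KCl, 12.50 and 12.53 after 1 h and 12.11 and 12.02 after 6 h. CTX WT arrays read 12.43 and 12.69 before KCl, 12.32 and 12.55 after 1 h and 11.93 and 11.99 after 6 h. The 6 h arrays lay below all 0 h and 1 h arrays of their genotype. The 6 h minus 0 h difference was -0.53 in CTX KO (SE 0.18, limma adjusted p 0.0281) and -0.60 in CTX WT (SE 0.18, 0.0156). The CTX KO call was lost without any 1 of its 4 arrays (-0.58 to -0.49), and the CTX WT call without repeat 2 at 0 h (-0.47) or repeat 1 at 6 h (-0.57). In MGE cultures the difference was -0.24 in KO and -0.27 in WT, which did not pass, with overlapping arrays in MGE KO and 6 h arrays just below the others in MGE WT.

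A second Vcan probe set, 1421694_a_at, moved the other way in CTX cultures. In CTX KO it read 10.53 and 10.93 after 6 h, against 9.88 and 10.03 before KCl, and in CTX WT 10.45 and 10.47 after 6 h, against 9.63 and 10.03 before KCl, so the 6 h arrays were above the 0 h ones in both genotypes. The differences were 0.77 in CTX KO (SE 0.22, limma adjusted p 0.0134 over all probe sets) and 0.64 in CTX WT (SE 0.22, 0.0385). The dim 1433043_at, above the array median in 3 of 24 arrays, differed by 1.59 in CTX KO and 1.02 in CTX WT, and both passed. It entered the tests only through those 3 arrays, so these calls are not counted as support for a rise. The probe set 1427257_at differed by -0.36 in CTX KO and -0.45 in CTX WT, and neither passed. With each array left out in turn, a check added after the data were seen, the 1421694_a_at call was lost in CTX KO without repeat 1 at 0 h or repeat 2 at 6 h (0.70 and 0.58) and in CTX WT without any 1 of 3 of its 4 arrays (0.44 to 0.65). The 1433043_at call held in CTX KO (1.17 to 2.01) and was lost in CTX WT without any 1 of 3 arrays, falling to 0.45 without repeat 1 at 6 h. Which transcripts each probe set reads is not given in the sources used here, so the fall of Vcan holds for its brightest probe set and not for the gene as a whole.

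**Figure D3:**
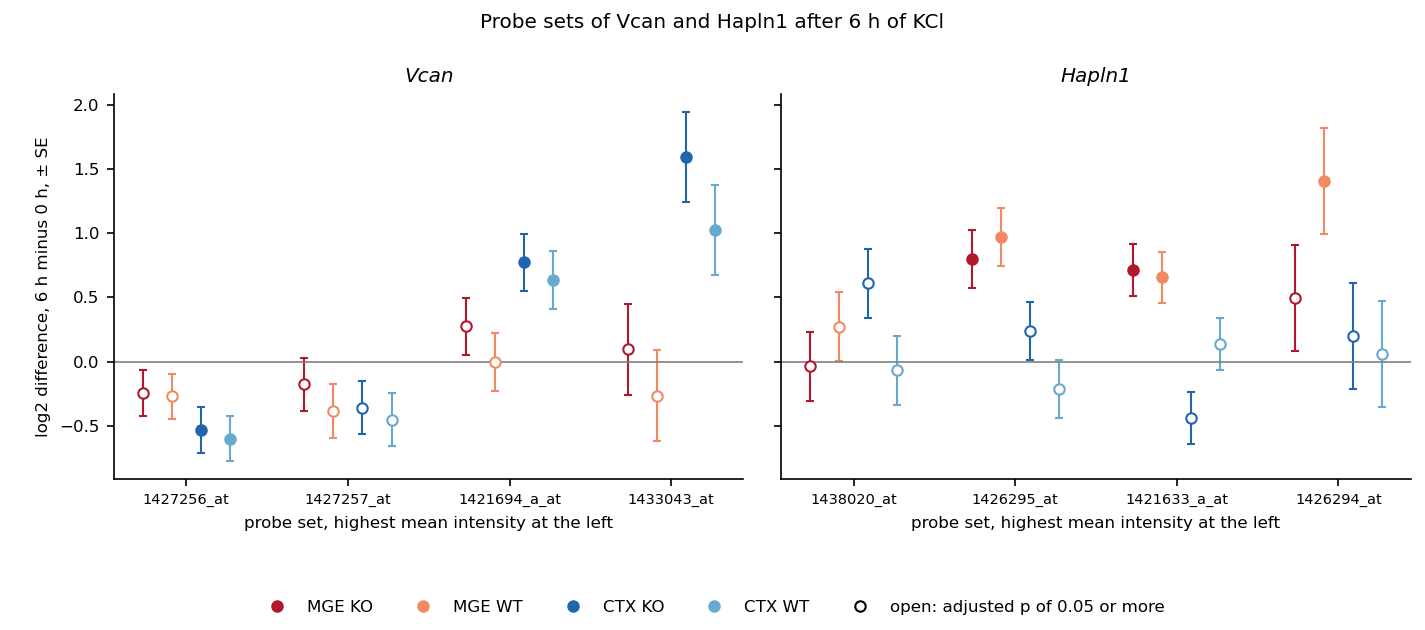
Log2 difference, 6 h minus 0 h of KCl, for each tested probe set of Vcan (left) and Hapln1 (right) in the 4 cultures, with the SE of the limma fit and a filled point where the adjusted p over all probe sets was under 0.05. In CTX cultures the Vcan probe sets 1421694_a_at and 1433043_at lie above 0 and 1427256_at below it, and 3 of the 4 Hapln1 probe sets lie above 0 in MGE cultures of both genotypes. Vcan 1433043_at exceeded the array median in only 3 of 24 arrays, and Hapln1 1421633_a_at and 1426294_at in only 4 and 7.

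Hapln1, the link protein that ties lecticans to hyaluronan in brain and cartilage, also gave different answers by probe set after depolarization. Its brightest, 1438020_at, differed by -0.04 in MGE KO and 0.27 in MGE WT at 6 h, which did not pass. The next, 1426295_at, read 9.51 and 9.48 after 6 h in MGE KO, against 8.80 and 8.59 before KCl, and 9.65 and 9.58 after 6 h in MGE WT, against 9.07 and 8.21 before KCl. Its differences of 0.80 in MGE KO (SE 0.23, limma adjusted p 0.0248) and 0.97 in MGE WT (SE 0.23, 0.0069) passed, with no overlap between 6 h and 0 h. The KO call was lost without any 1 of its 4 arrays (0.70 to 0.90), and the WT call without repeat 2 at 0 h (0.54, limma adjusted p 0.105) or repeat 1 at 6 h (0.94, 0.0607). The other 2 probe sets, 1421633_a_at and 1426294_at, were dim, above the array median in 4 and 7 of 24 arrays, and entered the tests only through those arrays. The first passed in MGE KO and MGE WT (0.71 and 0.66). Its KO call was lost without any 1 of 4 arrays (0.68 to 0.75) and its WT call without repeat 2 at 0 h (0.53) or at 6 h (0.36). The probe set 1426294_at passed in MGE WT (1.41), where its 0 h arrays read 6.73 and 4.80, but not without repeat 2 at 0 h (0.45) or repeat 1 at 6 h (1.14), and not in MGE KO (0.49). No Hapln1 probe set passed at 6 h in CTX cultures, where the brightest differed by 0.61 in KO and -0.07 in WT.

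Tnc, a large matrix glycoprotein of immature tissue, was above its 0 h mean at 6 h in all 4 cultures without passing the test. In MGE KO it read 9.16 and 10.13 after 6 h, against 8.41 and 9.51 before KCl, and in MGE WT 9.34 and 10.69 after 6 h, against 8.36 and 10.19 before. In CTX KO it read 10.30 and 10.80 after 6 h, against 9.57 and 10.56 before KCl, and in CTX WT 10.34 and 11.18 after 6 h, against 9.19 and 10.51 before. The paired arrays of a group lay up to 1.83 apart, with repeat 2 the higher in all 12 groups, and the 6 h and 0 h arrays overlapped in every culture. The differences were 0.69, 0.74, 0.48 and 0.91 in the order given (SE 0.75). Between arrays of the same repeat number all 8 differences were above 0, at 0.24 to 1.16, though the labels do not pair such arrays. With that number as a block in each cell type, Tnc passed in MGE KO, MGE WT and CTX WT, and not in CTX KO. Tnr, a tenascin that cross-links lecticans in nets, differed at 6 h by 0.41 in MGE KO, 0.51 in MGE WT, -0.34 in CTX KO and -0.32 in CTX WT, none of which passed. Its MGE response minus its CTX response was 0.75 in KO (95% interval 0.03 to 1.47, limma adjusted p 0.213) and 0.83 in WT (0.11 to 1.55, 0.120), so the opposite signs did not pass over all genes. Without repeat 1 of MGE WT at 0 h, the WT value became 1.16 and passed, which leaves the lowest Tnr reading of all arrays (8.07) alone in its group. Ncan differed at 6 h by -0.12 to -0.03 over the 4 cultures, and Bcan, a glial lectican, by -0.21 to 0.21, with no call.

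After 1 h of KCl, 0 of the 7 genes differed in any culture, against 0.444% of all genes in MGE KO, 0.574% in MGE WT, 1.10% in CTX KO and 0.864% in CTX WT. These comparisons share their 0 h arrays with those at 6 h. Acan, which was 11.8- to 28.3-fold higher at 6 h, differed at 1 h by 0.42 in MGE KO, 0.04 in MGE WT, -0.0018 in CTX KO and 0.03 in CTX WT (SE 0.59). The other 6 genes lay between -0.47 and 0.45 at 1 h, both ends being Hapln1 in CTX cultures, where it is below the array median.

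Hapln1 was the gene of the group that differed most between the cell types. It read 11.2 to 11.9 over the 12 MGE arrays (median 11.81) and 5.25 to 6.36 over the 12 CTX arrays (median 5.71), with a wide gap separating them at every time in both genotypes. In KO the MGE minus CTX difference was 6.41 at 0 h, 6.00 at 1 h and 5.76 at 6 h, and in WT it was 5.62, 6.27 and 5.96 (SE 0.27, all limma adjusted p at or below 2.05e-09). These are 49.3- to 84.8-fold, but every CTX array was below the array median, where intensities are compressed, so the folds are approximate. The other probe sets of Hapln1 were also higher in MGE arrays, by 5.18 for 1426295_at, 3.30 for 1426294_at and 1.63 for 1421633_a_at as averages over genotypes and times. The last 2 exceeded the array median in only 7 and 4 of 24 arrays, so not all MGE readings did. In bulk cultures such as these, fewer cells of a type and less RNA per cell cannot be told apart.

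Acan was higher in MGE than in CTX cultures on average, by 1.52 (SE 0.24, 2.86-fold, limma adjusted p 3.28e-05). Group by group the difference passed in KO at 1 h (1.51, 0.0497) and in WT at 0 h (1.45, 0.0420), 1 h (1.46, 0.0492) and 6 h (2.20, 0.00555), and not in KO at 0 h (1.09, 0.140) or 6 h (1.39, 0.0575). The first 3 of these calls were close to the threshold and were each lost without any 1 of their 4 arrays (adjusted p up to 0.198 in KO at 1 h, 0.178 in WT at 0 h and 0.251 in WT at 1 h), and the one in WT at 6 h without repeat 2 of CTX WT (0.89). At each genotype and time both MGE arrays read above both CTX arrays, which with 2 arrays a group adds no support to these calls.

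The neighbour of Hapln1, Vcan, went the other way. On 1427256_at it read 10.71 to 11.39 over the 12 MGE arrays (median 11.04) and 11.93 to 12.69 over the 12 CTX arrays (median 12.46), without overlap. The MGE minus CTX difference was -1.39, -1.32 and -1.10 in KO at 0, 1 and 6 h and -1.49, -1.29 and -1.16 in WT (SE 0.18, all adjusted p at or below 0.000128). On average Vcan was 2.45-fold lower in MGE cultures, and 3 further Vcan probe sets were lower too (-1.24 for 1421694_a_at, -0.93 for 1427257_at and -1.16 for 1433043_at). The mean over all its probe sets, taken before the fit, differed by -0.70 on average in place of -1.29.

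Ncan, the lectican of developing brain, read 12.79 to 13.04 over the MGE arrays (median 12.92) and 13.26 to 13.41 over the CTX arrays (median 13.37), which did not overlap. The difference was small and tight, from -0.52 to -0.37 over the 6 comparisons (SE 0.09), and passed in all of them. It passed on average on 1444020_at (-0.56) but not on 1423604_at (-0.09), which was 0.03 in WT at 1 h. Tnr read 8.07 to 9.24 over the MGE arrays (median 8.73) and 9.41 to 10.09 over the CTX arrays (median 9.88), again apart. Its MGE minus CTX difference was -1.34, -1.15 and -0.58 in KO at 0, 1 and 6 h and -1.48, -1.29 and -0.66 in WT (SE 0.24), and all but KO at 6 h passed (adjusted p 0.0501 there). The WT call at 6 h was lost without either CTX WT array or repeat 2 of MGE WT (-0.82 to -0.49 over the 4 arrays left out in turn).

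Tnc differed in no single group and passed on average, at -0.75 (SE 0.30, limma adjusted p 0.0327, 1.69-fold lower in MGE cultures), a call lost without any 1 of 12 of the 24 arrays. Bcan read 7.36 to 7.74 over the MGE arrays and 7.06 to 7.98 over the CTX arrays, which overlapped, with an average difference of 0.10 (95% interval -0.07 to 0.27). Hapln4, the link protein of mature hindbrain nets, read 5.13 to 5.71 over the MGE arrays and 5.26 to 5.91 over the CTX arrays, and was not tested.

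In KO cultures 4 of the 7 genes differed between the cell types at 0 h, against 47.0% of all genes, 5 at 1 h, against 43.9%, and 3 at 6 h, against 54.1%. In WT cultures 5 differed at 0 h, against 64.2%, 5 at 1 h, against 52.8%, and 5 at 6 h, against 56.0%. Averaged over genotypes and times, 6 of 7 differed, 2 higher and 4 lower in MGE cultures, against 81.6% of all genes. These shares are near the background of a comparison between different cell types. Astrocyte markers (11 tested of 13 on the array) averaged 9.59 to 10.1 in MGE arrays and 8.50 to 9.82 in CTX arrays. The 4 tested markers of oligodendrocyte precursors, of 10 on the array, averaged 9.52 to 10.5 in MGE arrays and 8.49 to 9.33 in CTX arrays. The 3 tested oligodendrocyte markers, of 8 on the array, averaged 9.30 to 9.84 in MGE arrays and 8.06 to 8.64 in CTX arrays. The 7 tested microglia markers, of 10 on the array, averaged 7.15 to 8.85 in MGE arrays (median 7.90) and 6.58 to 7.53 in CTX arrays (median 6.99). The untested markers did not exceed the array median on 2 or more arrays, so these means describe only the brighter markers. In each MGE array 4 of the 10 precursor markers and 2 or 3 of the 8 oligodendrocyte markers exceeded the array median. In each CTX array 3 or 4 and 2 or 3 did. Vascular and fibroblast markers averaged 7.91 to 8.58 in MGE arrays and 7.04 to 8.82 in CTX arrays. The log2 of their summed intensity was 13.43 to 14.24 in MGE arrays and 10.90 to 13.30 in CTX arrays. Markers of neural progenitors and radial glia averaged 8.95 to 9.40 in MGE arrays and 8.20 to 9.24 in CTX arrays. The part of these cell types in the differences was not tested.

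**Figure D4:**
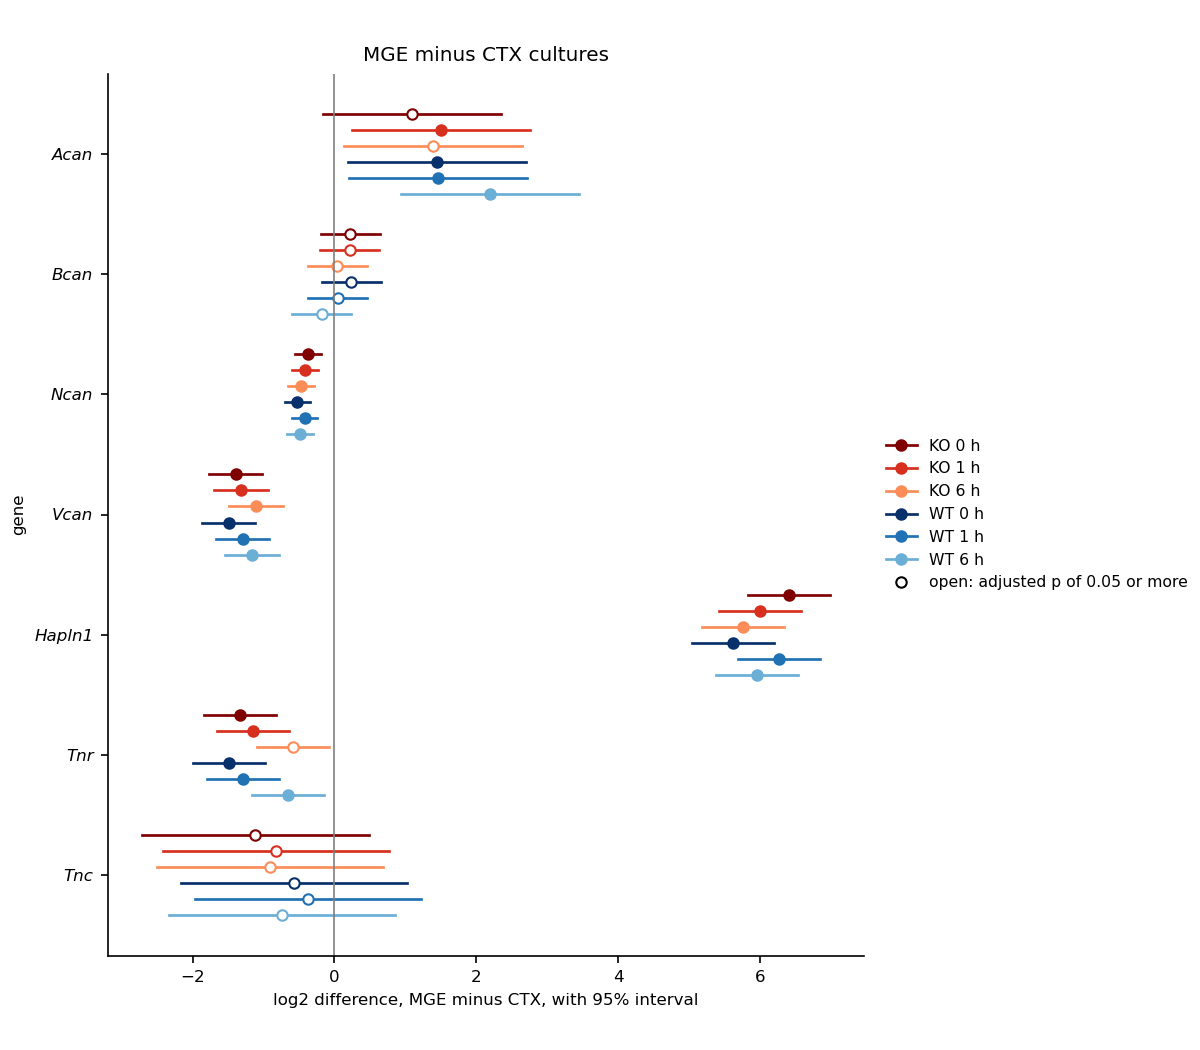
Log2 difference, MGE minus CTX cultures, of the 7 tested genes in KO and WT at 0, 1 and 6 h, with the 95% interval of the limma fit as a line and a filled point where the adjusted p was under 0.05. Hapln1 lies between 5.62 and 6.41, Acan above 0, Ncan, Vcan and Tnr below 0 in all 6 comparisons, and Bcan around 0.

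No gene of the group passed the test between KO and WT cultures at any time. In MGE cultures 0 of the 7 genes differed between KO and WT at 0 h, against 0% of all genes (0 of 12378, with 2598 at an unadjusted p under 0.05), 0 at 1 h, against 0.0242%, and 0 at 6 h, against 0.0323%. In CTX cultures 0 differed at 0 h, against 0% (49 genes at an unadjusted p under 0.05), 0 at 1 h, against 0.00808%, and 0 at 6 h, against 0.0485%. Averaged over the 6 pairs of groups, 0 of the 7 differed, against 0.0727%. Without repeat 1 of MGE WT at 0 h, the counts over all genes were far higher in MGE at 0 h and on average. That leaves repeat 2 alone in its group, the MGE array with the lowest mean of interneuron markers (11.38, against 11.73 in repeat 1).

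Acan read 13.16 and 13.06 in MGE KO and 13.26 and 13.29 in MGE WT at 6 h, a difference of -0.17 (95% interval -1.42 to 1.09). In CTX cultures at 6 h it read 12.20 and 11.23 in KO and 12.38 and 9.77 in WT, a difference of 0.64 (-0.62 to 1.89). That CTX value became 1.95 and passed (limma adjusted p 0.0487) without repeat 1 of CTX WT, which leaves the array at 9.77 alone on the WT side. The KO response at 6 h minus the WT response was 0.51 in MGE cultures (-1.26 to 2.29) and 0.96 in CTX cultures (-0.82 to 2.73). Across the 6 h responses, 0 of the 7 genes differed between KO and WT in MGE cultures, against 0% of all genes (190 at an unadjusted p under 0.05), and 0 in CTX cultures, against 0.00808%. Between MGE and CTX cultures 0 of the 7 responses differed in KO, against 7.34%, and 0 in WT, against 10.9%, and the WT difference of Acan became 2.05 in place of 0.75 and passed without repeat 1 of CTX WT at 6 h.

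On average over the 6 pairs, KO minus WT was -0.20 for Acan (95% interval -0.71 to 0.31), -0.19 for Bcan (-0.36 to -0.02, adjusted p 0.185), 0.06 for Ncan (-0.01 to 0.14), 0.09 for Vcan (-0.06 to 0.25) and 0.10 for Hapln1 (-0.14 to 0.33). It was 0.20 for Tnr (-0.01 to 0.41) and -0.15 for Tnc (-0.80 to 0.50). The Tnr value became 0.26 and passed without repeat 1 of MGE WT at 0 h, which leaves the lowest Tnr reading, 8.07, alone in that group.

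Genes that build, cleave or bind this matrix moved in both directions with 6 h of depolarization. Differences between the cultures' responses were fitted for all genes but are not given for these. Of 12 tested genes of chondroitin chain synthesis, 3 rose and 1 fell in MGE KO at 6 h, 5 rose and 1 fell in MGE WT, 0 rose and 3 fell in CTX KO, and 0 rose and 2 fell in CTX WT. That is 33.3% of the list in MGE KO, 50% in MGE WT, 25.0% in CTX KO and 16.7% in CTX WT, beside 17.1%, 25.3%, 36.2% and 35.2% of all genes in the same order. The share thus lay above that of all genes in MGE cultures and below it in CTX cultures, on 12 genes. Among the calls behind the MGE shares, Xylt2 in MGE KO (0.67) was lost without any 1 of 3 of its 4 arrays. Dse in MGE WT (1.11) was lost without repeat 2 at 0 h or repeat 1 at 6 h. B3galt6, which adds a galactose to the linker that joins the chain to the core protein, fell in all 4 cultures and was 2.32-fold lower in MGE KO, 2.30-fold in MGE WT, 5.74-fold in CTX KO and 4.51-fold in CTX WT. B4galt7, which adds the preceding galactose, fell by 1.26 in CTX KO and 1.38 in CTX WT. Csgalnact1, which starts the chondroitin chain, rose by 1.41 in MGE KO and 1.19 in MGE WT, the WT value being 0.77 without repeat 2 at 0 h and 1.60 without repeat 1. Chsy3, a chondroitin synthase, rose by 1.69 in MGE KO and 2.73 in MGE WT. The KO call was lost without any 1 of its 4 arrays (1.36 to 2.02), and the WT value was 1.57 without repeat 2 at 0 h and 3.88 without repeat 1. Of 7 chondroitin sulfotransferase genes tested, Chst15 rose by 0.94 in MGE KO, a call lost without any 1 of 4 arrays (0.92 to 0.97), and by 1.40 in MGE WT, and Chst11 fell by 0.71 in MGE KO, a call lost without repeat 1 at 0 h and with the mean over its probe sets (-0.39). Chst12, a chondroitin 4-O-sulfotransferase, fell by 2.24 in CTX KO and 2.42 in CTX WT. In all, 2 of the 7 sulfotransferase genes (28.6%) changed in MGE KO and 1 (14.3%) in each of the other 3 cultures, against the same shares of all genes. The medians over these lists lay between -0.28 and 0.77 in the 4 cultures, beside -0.11 to -0.05 over all genes.

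Of 20 tested genes for lectican-cleaving proteases and their inhibitors, 1 rose and 2 fell in MGE KO at 6 h, 3 rose and 1 fell in MGE WT, 3 rose and 1 fell in CTX KO, and 3 rose and 2 fell in CTX WT. These are 15.0% and 20.0% of the list in MGE KO and MGE WT, against 17.1% and 25.3% of all genes, and 20.0% and 25.0% in CTX KO and CTX WT, against 36.2% and 35.2%, all below the share of all genes. Adamts1, an aggrecan- and versican-cleaving protease, rose by 1.64 in MGE KO, 2.21 in MGE WT, 1.03 in CTX KO and 1.17 in CTX WT. The CTX KO call was lost without repeat 2 at 0 h or repeat 1 at 6 h (0.78 and 0.62), and the CTX WT call without the same repeats (0.88 and 0.87). Adamts5, which cleaves aggrecan, fell by 0.58 in MGE KO and rose by 0.61 in CTX KO and 1.11 in CTX WT, and the calls in KO were each lost without either of 2 arrays. With the mean over its probe sets these were -0.20, 0.28 and 0.46, and only the last passed. Mmp17, a membrane-anchored metalloproteinase, fell by 1.21 in MGE KO, 1.40 in MGE WT, 0.74 in CTX KO and 0.57 in CTX WT, the last 2 calls being lost without 1 and without any 1 of 3 arrays. Plat, tissue plasminogen activator, rose 5.76-fold in CTX KO and 4.92-fold in CTX WT. Of 9 genes of hyaluronan synthesis, breakdown and binding, 1 rose in MGE KO and 2 in MGE WT, 1 rose and 3 fell in CTX KO, and 1 rose and 1 fell in CTX WT, which is 11.1%, 22.2%, 44.4% and 22.2% of the list, and above the share of all genes in CTX KO alone. Tnfaip6, a hyaluronan-binding protein, rose 8.09-fold in CTX KO and 7.55-fold in CTX WT, and the hyaluronidase gene Hyal2 fell by 1.46 in CTX KO and 1.82 in CTX WT. Cemip, a hyaluronan-degrading protein, rose by 0.90 in MGE KO and 0.97 in MGE WT, each lost without any 1 of 4 arrays, and fell by 0.95 in CTX KO, lost without either of 2 arrays. With the mean over its probe sets these were 0.43, 0.13 and -0.38, and the MGE WT call was lost.

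Of 19 receptors and partners of the matrix, 0 changed in MGE KO, 2 rose in MGE WT, 3 rose in CTX KO, and 3 rose and 2 fell in CTX WT. These shares of 0% and 10.5% in MGE KO and MGE WT and 15.8% and 26.3% in CTX KO and CTX WT were all below those of all genes (17.1%, 25.3%, 36.2% and 35.2%). Nptx2, a neuronal pentraxin that gathers glutamate receptors at synapses onto parvalbumin interneurons, rose 20.9-fold in CTX KO and 31.0-fold in CTX WT. In MGE WT it rose 5.84-fold, a call lost without repeat 1 at 6 h (2.42, against 2.55). Of 8 other chondroitin sulfate proteoglycans, 1 rose in MGE WT (12.5%) and 0 changed in the other 3 cultures, again below the share of all genes in each. Of the 4 other link protein and tenascin genes 1 was tested, Tnn, which rose by 1.61 in CTX KO and 1.94 in CTX WT. It rose by 0.83 in MGE WT, a call lost without any 1 of its 4 arrays (0.67 to 0.99) and with log2(intensity + 32), at 0.50.

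Between the cell types, averaged over genotypes and times, these lists split in both directions. In MGE cultures 5 of 12 chain synthesis genes were higher and 6 lower, 3 of 7 sulfotransferase genes were higher and 3 lower, 10 of 20 protease genes were higher and 7 lower, 6 of 9 hyaluronan genes were higher and 2 lower, 8 of 19 receptor genes were higher and 9 lower, and 4 of 8 other proteoglycans were higher and 4 lower, against 81.6% of all genes called. Itih5, of a family of serum proteins whose heavy chains bind hyaluronan, was 22.4-fold higher in MGE cultures, and Cemip2, a cell-surface hyaluronidase, 9.05-fold lower (-3.18 on the log2 scale, and -1.51 with the mean over its probe sets). Dcn (decorin) was 13.6-fold lower and Bgn (biglycan) 3.87-fold higher, both of them small leucine-rich proteoglycans, with Dcn at -3.77 on the log2 scale and -1.90 with the mean over its probe sets. Among chain-building genes Chsy1, Chsy3 and Csgalnact1 were 3.65-, 3.85- and 2.98-fold lower in MGE cultures, Chsy3 at -1.95 on the log2 scale and -0.96 with the mean over its probe sets, and among sulfation genes Ust was 7.26-fold lower and Chst15 2.94-fold higher. Prss12 (neurotrypsin) was 24.7-fold lower, and the protease inhibitor genes Timp3 and Timp4 were 4.67- and 5.64-fold higher.

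Between KO and WT, 1 gene of these lists passed, in the comparison averaged over cell types and times. The number of genes tested in each list is given above. In that averaged comparison 9 of all 12378 genes tested (0.0727%) were called. Adamts5 averaged 7.59 in KO arrays and 8.13 in WT arrays, a difference of -0.53 (SE 0.07, limma adjusted p 0.0157). The call was lost without any 1 of 7 of the 24 arrays (adjusted p 0.0025 to 0.0638 over the 24), and the mean over its probe sets, -0.25, did not pass.

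Over the 12 group means, the genes whose pattern was most like that of a member, by Pearson's r, were Gm10785, Spred3 and Tacr3 for Acan (0.98 each) and Lhx8, AW551984 and Htr7 for Hapln1 (all 0.998 or more). For Vcan they were Armh4, Mcu and Kcnv1 (0.996 or more), for Ncan Gopc, Adss and Ccdc88c (0.996 or more), and for Tnr Cdh8, Kcnq5 and N4bp2l2 (0.991 or more). For Tnc they were Sult2b1, Rnf19b and Dazap1 (0.971 or more) and for Bcan Ppp1r1a, Ctxn2 and Fxyd2 (0.898 or more). Each r rests on 12 points that share arrays and fall into an MGE and a CTX cluster, so it describes likeness of level over these groups and nothing more.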

How the data were processed

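Messenger RNA was measured on 24 Affymetrix mouse genome arrays, 12 groups of 2. The labels' protocols name the NuGEN Ovation V2 amplification kit and an input of 100 ng. The authors deposited 1 linear intensity per probe set and array, from 6.61 to 29464 over 45101 probe sets, made with RMA (no version given) per the submitters' processing notes. The sources used here do not say whether MGE and CTX arrays went through 1 normalization. With array medians at 115 to 121, a change common to most genes cannot be seen.

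From these values log2 was taken with no further scaling. The 34958 probe sets annotated to 1 gene symbol gave 18194 genes, each read from its probe set of highest mean. Tests took in the 12378 genes whose intensity exceeded the array's median on 2 or more arrays. limma 3.58.1 in R 4.3.3 fitted 12 group means to all 24 arrays (12 residual and 2.41 prior degrees of freedom), with two-sided moderated tests in 26 comparisons and Benjamini-Hochberg adjustment over all genes tested in each. This gave 182 tests of the 7 genes, 39 of them called. The fit was tested on simulated data. The number of arrays limits the precision, and no probe set's level was set against another's.

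The genes, their lists and the tests were chosen with earlier results of these data known. The 8 genes were named in every comparison, and from each list the text names only genes among the 4 called with the largest absolute change in a comparison. Alternatives were a stricter and no filter, cyclic loess, an added constant of 32, the repeat number as a block, each cell type alone, a mean-variance trend, the mean over probe sets, other probe sets and each array left out. Leaving out arrays for the other probe sets was added after seeing the data. Promoter sequences are from RefSeq (GRCm38.p6).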

Additional observations from a re-analysis of the deposited data

How the results depend on the processing

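Every alternative named above was run. Of 617 re-computed values of the 39 called differences of the 7 genes, 555 kept direction and call, 55 kept direction and lost the call, and 7 reversed. The reversed ones were Ncan between MGE and CTX in WT at 1 h on 1423604_at (0.033), and Vcan at 6 h minus 0 h on 1421694_a_at (0.77 in CTX KO, 0.64 in CTX WT), on 1433043_at (1.59 and 1.02) and as the mean over its probe sets (0.27 and 0.076), where the mean takes in the probe sets that rose. Of 1455 re-computed values of 81 differences of the other listed genes, 1355 kept direction and call and 100 lost the call.

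Of 26 counts of called genes among the 7, 17 moved under no alternative by more than 1.5 times. At 6 h minus 0 h, CTX KO had 1 in place of 2 with cyclic loess, with the mean over probe sets and without any 1 of its arrays (range 1 to 1), and CTX WT had 1 with the mean over probe sets and 1 to 2 with an array left out. MGE WT had 2 in place of 1 with the mean over probe sets, which added Hapln1 (0.83), and 1 to 2 with an array left out. MGE minus CTX in KO at 6 h had 5 in place of 3 with log2(intensity + 32), adding Acan (1.38) and Tnr (-0.56), and 3 to 5 with an array left out. MGE minus CTX in WT at 6 h had 3 to 5, KO minus WT in CTX at 6 h, KO minus WT averaged, and the MGE minus CTX 6 h response in WT 0 to 1 each. The causes were not tested.

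In the labels, same-numbered arrays share only a number, with 2 numbers in all. Their deviations correlated at -0.23 to 0.86 (median 0.61) over 15 pairs of MGE groups, 0.11 to 0.71 (0.37) over 15 pairs of CTX groups and -0.39 to 0.20 (-0.06) over 36 mixed pairs. With the repeat number as a replicate block of its own in each cell type, the 6 h minus 0 h count was 2 in MGE KO and in MGE WT, adding Tnc (0.69 and 0.74), and Tnc (0.91) in CTX WT and Hapln1 (0.61) in CTX KO also passed. With 1 block over both cell types, MGE minus CTX in KO at 6 h had 6 called, adding Acan (1.39), Tnr (-0.58) and Tnc (-0.91). With that block Tnc also passed between MGE and CTX in KO at 0 h (-1.11) and 1 h (-0.82) and in WT at 0 h (-0.57) and 6 h (-0.74). All 39 calls held with a block.

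Counts over all genes moved more in comparisons of KO with WT. KO minus WT in MGE at 0 h had 0 calls and up to 3878 with 1 array left out, and the averaged comparison had 9, with 1 to 3205 when an array was left out and 6 to 31 under other alternatives. In CTX at 6 h it had 6, with 2 to 129 and 3 to 38. The 6 h response in KO minus WT in MGE had 0 to 693 with an array left out. KO minus WT had 3 in MGE at 1 h (1 to 2 with an array left out), 4 in MGE at 6 h (0 to 5, and 2 to 11 otherwise), 0 in CTX at 0 h (up to 2) and 1 in CTX at 1 h (up to 2), and the 6 h response in KO minus WT in CTX had 1 (up to 2). With an array left out, the 1 h count was 20 to 27 in MGE KO (55), 21 to 1813 in MGE WT (71), 47 to 77 in CTX KO (136) and 38 to 93 in CTX WT (107), the 6 h count 1008 to 1470 in MGE KO (2118) and 1103 to 5248 in MGE WT (3128), the difference of 6 h responses 430 to 1125 in KO (908) and 539 to 3901 in WT (1350), and MGE minus CTX in KO at 0 h 3649 to 4909 (5819). The counts of 3878, 3205, 693, 1813, 5248 and 3901 came without repeat 1 of MGE WT at 0 h, and that of 129 without repeat 1 of CTX WT at 6 h. Leaving out repeat 1 of MGE WT at 0 h leaves repeat 2 alone in that group. Interneuron markers averaged 11.38 in repeat 2, the lowest of the MGE arrays, and 11.73 in repeat 1. Without a filter Hapln4 passed between MGE and CTX on average (-0.29) and in KO at 6 h (-0.63). Precision is limited by 2 arrays a group, and probe sets below the array median, such as Hapln1 in CTX cultures, give compressed folds.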
